A study of Mus musculus with 8 samples.

Results

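The EGF system of the distal convoluted tubule was followed through 10 genes in 8 RNA sequencing libraries of sorted mouse tubule fragments. The genes were chosen by name: the ligands Egf, Hbegf, Btc, Tgfa and Areg, the receptors Erbb2, Erbb3, Erbb4 and Egfr, and the feedback inhibitor Errfi1. Earlier results of these data were known when they were chosen. All 10 were found among the 42416 genes of each count file, and 9 of them were among the 14268 genes with enough counts to be tested. The 4 KO libraries came from mice labelled Cnb1fl Tg/Tg, with the NCCcre transgene and a TOMATO reporter, both Tg/+. The 4 Control libraries came from mice labelled wt for Cnb1fl that carried the same NCCcre and TOMATO alleles, so Cre and reporter were present in both groups. The age and sex of the animals are not in the labels used here. All animals were given tamoxifen by gavage to start recombination, at 2 mg a day for 5 days, and were studied 3 weeks later. Cnb1 is the regulatory subunit of the phosphatase calcineurin (gene symbol Ppp3r1), and the Cre transgene is named for the NaCl cotransporter NCC, so the deletion was aimed at this segment. Each library came from 1000 fragments, and each title gives another animal number. The comparison asks what loss of calcineurin in the distal convoluted tubule does to its transcripts.

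EGF is made as a long membrane-anchored precursor in the thick ascending limb and the distal convoluted tubule, and proteases release it into urine and toward the basolateral side. EGF family ligands bind the ErbB receptors, which pair on binding and signal through Ras and ERK and through PI3 kinase. EGF, TGF-alpha and amphiregulin bind EGFR, HB-EGF and betacellulin bind EGFR and ErbB4, and neuregulins bind ErbB3 and ErbB4. ErbB2 has no known ligand of its own and serves as a partner of the others, and ErbB3 has little kinase activity. In humans, loss of function of the EGF precursor causes renal magnesium wasting, and EGF stimulates the magnesium channel TRPM6 in this segment.

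Libraries held 18161442 to 45150953 counts. KO replicate 1 and Control replicate 2, the deepest, are the pair whose file names carry an index sequence. The animal numbers fall into 3 runs, the first with KO replicate 1 and Control replicate 1, the second with KO replicates 2 to 4 and Control replicates 2 and 3, and the last with Control replicate 4 alone. Ppp3r1 stood at 80.7, 74.0, 97.7 and 92.5 CPM (read counts scaled to a common library total) across KO replicates 1 to 4, against 108, 97.4, 99.8 and 84.4 CPM in Control replicates 1 to 4. The fold change on the log2 scale was -0.18 ± 0.13 (SE, 4 libraries a group, edgeR adjusted p = 0.548). The floxed exons are not named in the labels, so gene-level counts of the target do not check the genotype labels, and KO here means the deposited label. The segment's defining cotransporter, Slc12a3, was abundant in every library, at 3911 to 8074 CPM in KO and 5651 to 8049 CPM in Control. Marker genes of other tubule cells were present too. The summed level of 8 thick ascending limb markers was 4343 to 7163 CPM in KO and 8997 to 13995 CPM in Control, and none of these 8 was at 0. Most counts in that sum were of Umod (1318121 over all libraries), with Kcnj1 next (382414). The sum therefore largely restates Umod, and the groups did not overlap for 1 of the 8 markers of that limb. Umod, the uromodulin gene of that limb, fell, with a log2 fold change of -1.19 ± 0.25 (SE, edgeR adjusted p = 0.041), a call that 9 of 17 alternative settings lost, each KO replicate but 3 and each Control replicate but 2 among the libraries whose removal did so (adjusted p up to 0.158). The 7 proximal tubule markers summed to 3500 to 9250 CPM in KO and 6069 to 14036 CPM in Control. Most of those counts were of Kap (1342206, with Slc34a1 next at 261190). The 7 collecting duct principal cell markers summed to 157 to 372 CPM in KO and 349 to 602 CPM in Control. The 10 distal convoluted tubule markers summed to 6519 to 10558 CPM in KO and 11080 to 15401 CPM in Control, and 1 of them rose and 5 fell, where 1.34% of all genes tested rose and 0.876% fell. The 6 intercalated cell markers summed to 304 to 651 CPM in KO and 373 to 513 CPM in Control. Podocyte, endothelial and fibroblast lists stayed at or under 106 CPM in every library, and of their genes only Lum, of the fibroblast list, had no count at all. The 8 leukocyte markers summed to 4.54 to 15.2 CPM in KO and 3.02 to 5.61 CPM in Control. Of the 4 leukocyte markers tested 0 passed, 2 were higher at an unadjusted p under 0.05, against 7.79% of all genes, and the median log2 fold change was 0.84. Of the 7 principal cell markers 0 passed, 6 were lower at an unadjusted p under 0.05, against 6.15% of all genes, and the median was -0.92.

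No member of the EGF system passed the threshold of an adjusted p under 0.05 between the genotypes. Of the 9 tested, 0 were higher and 0 lower in KO by edgeR, where 2.21% of all genes tested passed, 1.34% higher and 0.876% lower. At an unadjusted p under 0.05 there were 5 of 9, where the share over all genes was 13.9%. Hbegf, Erbb2 and Erbb4 had positive fold changes (3 of 9, against 7.79% of all genes), and Egf and Errfi1 negative ones (2 of 9, against 6.15%). DESeq2 passed 2 of 9, Egf and Hbegf, where it passed 5.25% of all genes, 2.96% higher and 2.29% lower. Limma-voom passed 1 of 9, Egf, where it passed 3.64% of all genes, 1.63% lower. The CPM values of KO and Control did not overlap for Egf and Btc, 2 of the 9 tested, where 9.44% of all genes showed no overlap. The median log2 fold change of the 9 was -0.12, beside -0.02 for all genes tested. The members and the lists below were chosen with earlier results of these data known. Their counts beside the shares over all genes are therefore a description and no evidence of enrichment.

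**Figure D1:**
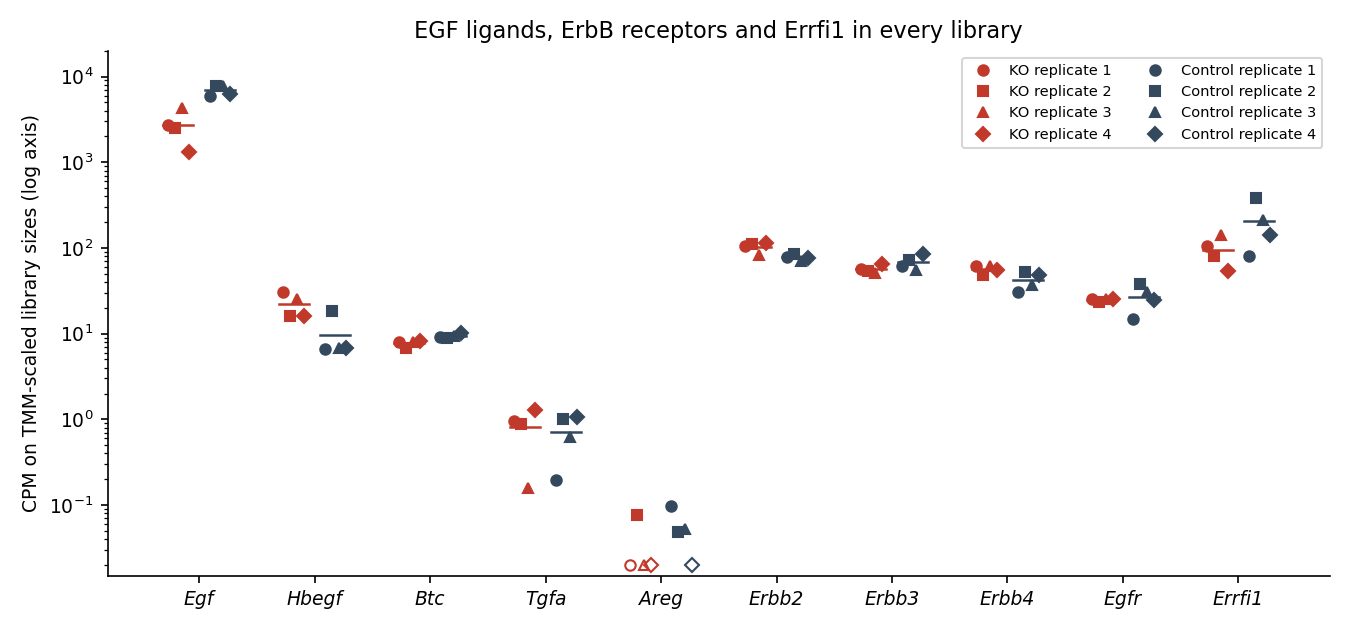
CPM of the 10 genes in each library on a log axis, KO in red left of Control in dark blue, with a symbol for each replicate, a line at the group mean, and open symbols at 0.02 CPM for libraries with no count (no mean line is drawn for Areg). Egf lies above all other members in every library, and its 4 KO values, 1303 to 4263 CPM, lie below its 4 Control values, 5852 to 7801 CPM.

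Egf (ENSMUSG00000028017, chromosome 3, 129677565 to 129755316, minus strand, GRCm38) was the most abundant member by far. It stood at 2747, 2494, 4263 and 1303 CPM across KO replicates 1 to 4, against 5852, 7796, 7801 and 6323 CPM in Control replicates 1 to 4. Every KO library was below every Control library, with KO replicate 4 lowest and KO replicate 3 nearest to Control. The means were 2702 ± 1216 CPM in KO and 6943 ± 1006 CPM in Control (SD, n = 4 each). The log2 fold change was -1.36 ± 0.31 (SE), a KO level of 0.389 of Control with a 95% interval of 0.242 to 0.625, and it just missed the threshold (edgeR adjusted p = 0.0552). The exact two-sided permutation p was 0.0286, the smallest that 4 against 4 libraries can give. It follows from the lack of overlap and was not adjusted over the members. Btc had the same permutation p at a log2 fold change of -0.28. For Egf, DESeq2 gave an adjusted p of 0.000254 and limma-voom 0.0137, and over the 17 alternative settings the adjusted p ran from 0.000254 to 0.18 with 4 of them past the threshold. Without KO replicate 3, edgeR gave -1.68 and an adjusted p of 0.0166. Between the 2 libraries with an index sequence in the file name, 1 of each genotype, the log2 ratio of KO to Control was -1.51, and among the other 3 of each it was -1.31. Within the first run of animal numbers, 1 of each genotype, it was -1.09, and within the second, with 3 KO and 2 Control, it was -1.54. KO replicate 4 also had the lowest sums in KO for the distal convoluted tubule (6519 CPM), thick ascending limb (4343 CPM), proximal tubule (3500 CPM), principal cell, podocyte, endothelial and fibroblast lists. Its intercalated cell sum (461 CPM) was above that of KO replicate 1 (304 CPM), and its leukocyte sum (15.2 CPM) was the highest of all libraries. Transcripts of the mitochondrial genome took 15.4%, 16.4%, 18.4% and 13.4% of counts in KO replicates 1 to 4, and 17.0% to 19.1% in Control. KO replicate 4 was lowest and KO replicate 3 highest of the KO libraries in this share, as for Egf, and its part in the Egf difference was not tested.

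In these tubules Egf was among the most abundant transcripts. It took 0.296%, 0.256%, 0.429% and 0.143% of all counts in KO replicates 1 to 4, and 0.518%, 0.764%, 0.75% and 0.616% in Control replicates 1 to 4. By CPM it ranked 15th to 41st among the tested genes of a KO library and 10th to 16th in a Control library. Its transcript is long, and per kilobase of annotated exon it ranked 78th to 315th in KO and 47th to 90th in Control. The 250 bases before the more upstream of the annotated Egf starts (RefSeq, GRCm38.p6, chr3:129755323-129755572, minus strand) are shown because Egf was the most abundant member ligand in these libraries. Capitals mark the matches to 5 short motifs looked for on both strands.
Egf: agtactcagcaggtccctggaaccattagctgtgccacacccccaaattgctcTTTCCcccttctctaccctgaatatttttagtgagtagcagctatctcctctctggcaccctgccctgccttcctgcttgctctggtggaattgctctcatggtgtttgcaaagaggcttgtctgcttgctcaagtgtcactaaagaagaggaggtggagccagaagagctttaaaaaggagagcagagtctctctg
The motifs were TGANTCA (AP-1), GGAAA (the core bound by NFAT, the factor that calcineurin activates), TGACGTCA (cAMP response element), TATAAA and GGGCGG (GC box). The Egf window held 1 match, an NFAT core on the opposite strand 197 bases before the start. Such a core was present in 55.6% of 32817 annotated windows of this length, an AP-1 motif in 6.75%, a cAMP response element in 1.55%, a TATAAA in 12.4% and a GC box in 32.7%. A match is a string of letters and says nothing of binding. Windows were found for 8 of the 10 members, all but Erbb3 and Hbegf.

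How far Egf stood below Control depended on the transcript it was set against. These 4 ratios of read counts within a library, which need no library scaling, were chosen after the values were seen. Against Kcnj16, a basolateral potassium channel subunit of this segment whose own log2 fold change was 0.01 ± 0.12 (SE), Egf stood at 2.83, 2.46, 3.9 and 1.31 in KO replicates 1 to 4 and at 6.46, 7.26, 7.23 and 6.44 in Control replicates 1 to 4. The groups did not overlap, and the ratio was 0.357 of Control (exact permutation p = 0.0286, 0.0571 adjusted over the 4 ratios). Kcnj16 was not typical of the 10 distal convoluted tubule markers. Of these, 7 had negative fold changes and 3 positive, with a median log2 fold change of -0.57. A ratio to a level gene largely repeats the fold change of Egf itself. Against Slc12a3 the Egf ratio was 0.34, 0.552, 1.09 and 0.328 in KO and 1.04, 1.24, 1.09 and 0.786 in Control, with KO replicate 3 inside the Control range (0.497 of Control, exact permutation p = 0.0857, adjusted 0.114). Against Slc12a1, the sodium, potassium and chloride cotransporter of the thick ascending limb, it was 4.74 to 5.45 in KO and 5.73 to 12.2 in Control (0.649 of Control, exact permutation p = 0.0286, adjusted 0.0571). Against Umod it was 0.604, 0.618, 0.964 and 0.537 in KO and 0.625, 1.29, 0.876 and 0.577 in Control, overlapping widely (exact permutation p = 0.486). The Egf difference was therefore 2.8-fold against Kcnj16 and 1.21-fold against Umod. With only the ratios to Kcnj16 and Slc12a1 at the smallest possible p, their adjusted value could not be under 0.0571, whatever the size of the difference. Of the 8 thick ascending limb markers 1 fell (Umod) and 7 did not pass, where 0.876% of all genes tested fell. All 8 had negative fold changes, with a median log2 fold change of -0.50. This lean was not particular to that limb. All 7 proximal tubule, 7 principal cell and 4 podocyte markers were negative too, with medians of -0.56, -0.92 and -0.67. Of 6 intercalated cell markers 4 were negative (median -0.13), while 3 of the 4 leukocyte markers tested were positive. The part of thick ascending limb RNA in the Egf difference was not tested. In bulk fragments, fewer cells that express a gene and less transcript per cell cannot be told apart.

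**Figure D2:**
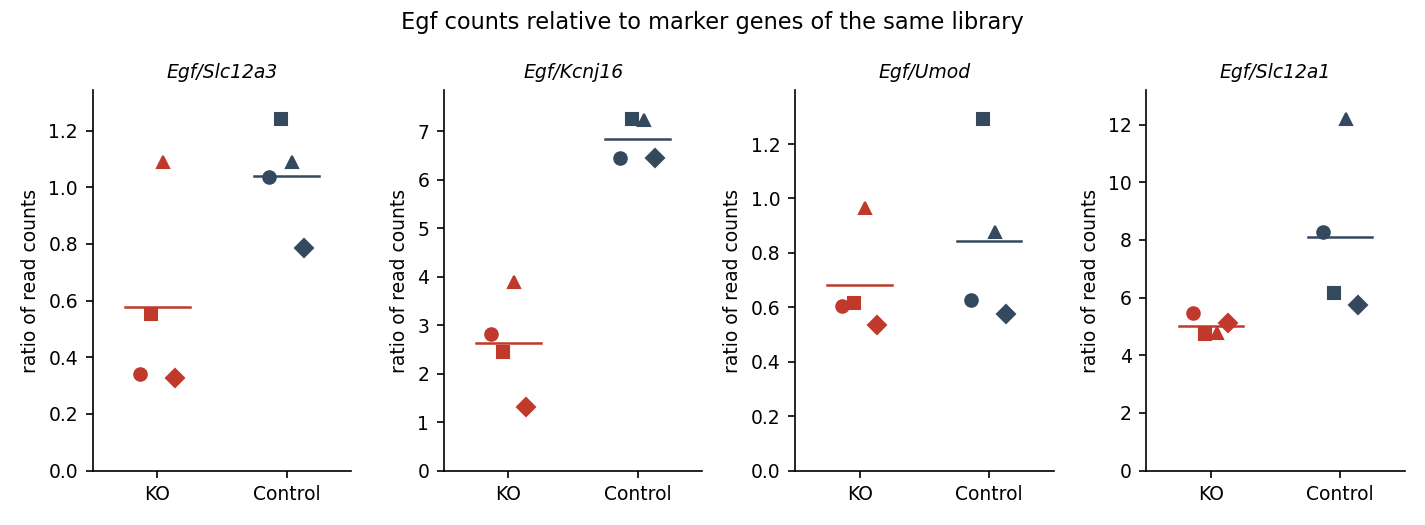
Read counts of Egf divided by those of Slc12a3, Kcnj16, Umod and Slc12a1 in the same library, KO in red left of Control in dark blue, with replicate symbols in the order circle, square, triangle, diamond and a line at the mean. The groups separate for Kcnj16 (1.31 to 3.9 in KO, 6.44 to 7.26 in Control) and for Slc12a1, and overlap for Slc12a3 and Umod.

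The 5 genes whose course over the 8 libraries was most like that of Egf, of 9344 compared, were Iyd, Slc30a2, Pigr, Tcea3 and Rnf186. Likeness was the root mean square difference between deviations of log2 CPM from each gene's own mean, and was 0.252 for Iyd, an iodotyrosine deiodinase, 0.271 for Slc30a2, a zinc transporter, 0.292 for Pigr, the polymeric immunoglobulin receptor, 0.301 for Tcea3, a transcription elongation factor, and 0.328 for Rnf186, a ubiquitin ligase. They were picked for following Egf over these same libraries, so their direction was set by the choice and is no further evidence. As a description, their log2 fold changes ran from -1.56 to -0.91, and Iyd, Slc30a2 and Rnf186 passed the threshold (edgeR adjusted p = 0.0482, 0.0173 and 0.0142). Slc30a2 and Rnf186 lost their calls without KO replicate 2, without Control replicate 4 and with animal run as a block (adjusted p up to 0.0979 and 0.0885), and Iyd in 11 of 17 settings, without each library but KO replicate 3 among them (up to 0.155). Umod ranked 27th by the same measure, Trpm6 30th, Slc12a1 39th, Errfi1 125th and Slc12a3 800th.

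Hbegf (ENSMUSG00000024486, chromosome 18, 36504927 to 36515805, minus strand) encodes HB-EGF, a membrane-anchored ligand of EGFR and ErbB4 that is induced in injured or stimulated epithelia. It stood at 30.5, 16.3, 25.1 and 16.0 CPM across KO replicates 1 to 4, against 6.63, 18.4, 6.85 and 6.72 CPM in Control replicates 1 to 4. Control replicates 1, 3 and 4 lay close together and below all KO libraries, and Control replicate 2 lay above KO replicates 2 and 4. The log2 fold change was 1.17 ± 0.37 (SE, edgeR adjusted p = 0.173), or 2.26-fold with a 95% interval of 1.28 to 3.98. Without Control replicate 2 it was 1.71 and passed (edgeR adjusted p = 0.024), and with a model term for an index in the file name it was 1.3 and passed (adjusted p = 0.0227). Between the 2 libraries with an index the log2 ratio was 0.73, and among the other 3 of each it was 1.51. Within the first and second runs of animal numbers it was 2.2 and 0.6. DESeq2 passed it with an adjusted p of 0.0368.

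The remaining ligands among the members were scarce. Btc (ENSMUSG00000082361, chromosome 5, 91357261 to 91402994, minus strand), which encodes betacellulin, stood at 8.08, 6.75, 7.99 and 8.22 CPM in KO and at 9.22, 8.88, 9.35 and 10.2 CPM in Control replicates 1 to 4. The groups did not overlap, but the difference was small, with a log2 fold change of -0.28 ± 0.14 (SE, edgeR adjusted p = 0.412). Tgfa (ENSMUSG00000029999, chromosome 6, 86195223 to 86275719, plus strand), which encodes TGF-alpha, was at 0.946, 0.887, 0.157 and 1.3 CPM in KO and 0.195, 1.011, 0.627 and 1.05 CPM in Control, and its log2 fold change of 0.16 had a 95% interval from -1.21 to 1.53 (edgeR adjusted p = 0.919). Areg (ENSMUSG00000029378, chromosome 5, 91139599 to 91148432, plus strand), which encodes amphiregulin, had 0, 2, 0 and 0 counts in KO replicates 1 to 4 and 2, 2, 1 and 0 counts in Control replicates 1 to 4, too few to be tested.

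Per kilobase of annotated exon, Egf averaged 240 ± 108 CPM per kb in KO and 616 ± 89.3 in Control (SD, n = 4 each). Hbegf was next among the member ligands in KO, at 4.54 ± 1.46, and stood at 1.99 ± 1.2 in Control. Btc was at 1.72 ± 0.151 in KO and 2.08 ± 0.127 in Control, so the order of Hbegf and Btc was the other way round in the Control means, where their ranges overlapped. Tgfa was at 0.127 in KO and 0.111 in Control, and Areg below it, with overlapping ranges in both genotypes. A length that counts every annotated exon understates the level of a gene whose cells use a shorter transcript.

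Of the 4 receptor genes, Erbb2 was the most abundant and Egfr the least. Erbb2 (ENSMUSG00000062312, chromosome 11, 98412470 to 98437716, plus strand) stood at 106, 110.1, 82.3 and 113 CPM across KO replicates 1 to 4, against 78.1, 85.2, 70.02 and 76.3 CPM in Control replicates 1 to 4. KO replicates 1, 2 and 4 were above all Control libraries, and KO replicate 3 was below Control replicate 2. Its log2 fold change was 0.41 ± 0.13 (SE, edgeR adjusted p = 0.166), or 1.33-fold with a 95% interval of 1.09 to 1.61. Its exons overlap those of Mien1 on the opposite strand by 9 of 5210 bases, and Mien1 held 139% as many counts.

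Erbb4 (ENSMUSG00000062209, chromosome 1, 68032186 to 69108059, minus strand), a receptor of neuregulins and HB-EGF, stood at 62.4, 47.9, 60.9 and 55.2 CPM in KO and at 30.3, 53.0, 37.4 and 48.3 CPM in Control replicates 1 to 4. The ranges overlapped, and the log2 fold change was 0.42 ± 0.18 (SE, edgeR adjusted p = 0.325). Erbb3 (ENSMUSG00000018166, chromosome 10, 128567523 to 128589652, minus strand), the neuregulin receptor that depends on a partner's kinase, stood at 56.3, 53.2, 51.1 and 64.9 CPM in KO and at 61.0, 72.7, 56.0 and 84.1 CPM in Control. Its log2 fold change was -0.28 ± 0.15 (SE, edgeR adjusted p = 0.415), with a 95% interval from -0.6 to 0.04. Egfr (ENSMUSG00000020122, chromosome 11, 16752203 to 16918158, plus strand), the receptor of EGF itself, was nearly level in KO, at 25.05, 23.3, 25.7 and 25.5 CPM, and spread more widely in Control, at 14.97, 38.4, 30.3 and 24.6 CPM. Its log2 fold change was -0.12 ± 0.23 (SE, edgeR adjusted p = 0.823), with a 95% interval from -0.65 to 0.4, and its sign flipped when libraries were scaled by their totals alone (0.0091) and without Control replicate 2 (0.095). It was 0.74 within the first run of animal numbers and -0.47 within the second.

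**Figure D3:**
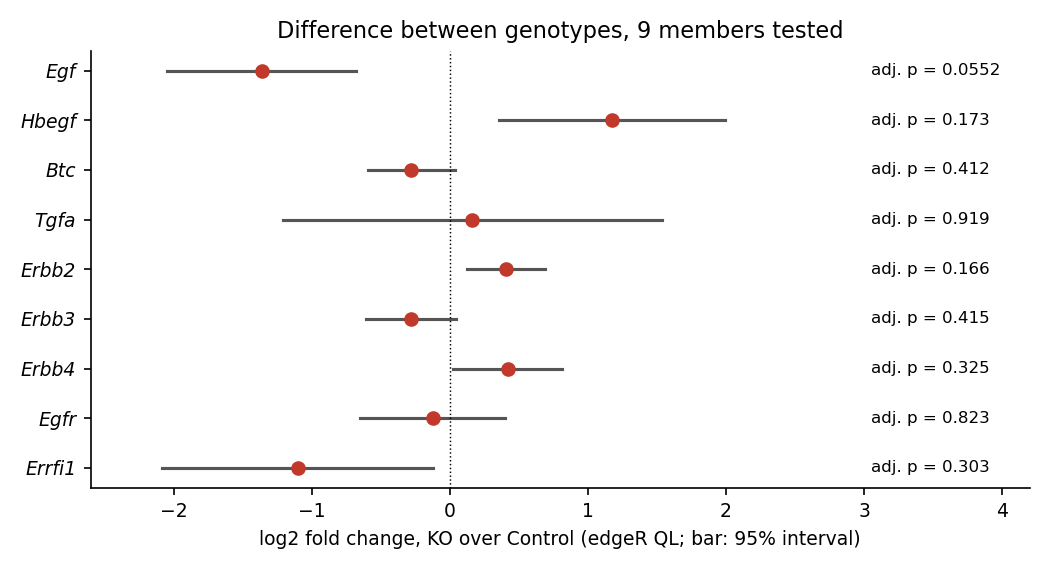
Log2 fold changes of the 9 tested members, KO over Control, as points with 95% intervals from the edgeR fit and the p adjusted over all genes at the right. Egf and Errfi1 lie lowest and Hbegf highest; the intervals of Egf, Hbegf, Erbb2, Erbb4 and Errfi1 leave out 0, and no adjusted p is under 0.05.

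Per kilobase the receptors kept the order Erbb2, Erbb3, Erbb4 and Egfr in the means of both genotypes. Erbb2 was at 19.7 ± 2.68 CPM per kb in KO and 14.9 ± 1.2 in Control, Erbb3 at 9.37 ± 1.0 in KO and 11.4 ± 2.08 in Control, Erbb4 at 4.58 ± 0.532 in KO and 3.42 ± 0.832 in Control, and Egfr at 2.2 ± 0.097 in KO and 2.39 ± 0.869 in Control (SD, n = 4 each). Within KO, no neighbours among the 4 overlapped. In Control, Erbb2 and Erbb3 overlapped, and so did Erbb4 and Egfr. The 4 together summed to 31.5 to 39.1 CPM per kb in KO and 28.5 to 36.1 in Control. Erbb2 made up 55.1%, 58.9%, 50.2% and 55.3% of that sum in KO replicates 1 to 4 and 51.8%, 45.3%, 47.2% and 42.2% in Control replicates 1 to 4. Erbb3 made up 24.6% to 27.5% in KO and 32.7% to 40.3% in Control, with no overlap.

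Ratios between the receptors of 1 library need no library scaling, and all 6 pairs were compared after the values had been seen. The Erbb2 to Erbb3 ratio per kilobase was 2.18, 2.39, 1.86 and 2.01 in KO and 1.48, 1.35, 1.44 and 1.05 in Control, 1.59-fold that of Control. The Erbb3 to Erbb4 ratio was 1.85, 2.28, 1.72 and 2.41 in KO and 4.13, 2.82, 3.07 and 3.58 in Control, 0.609 of Control. The Erbb4 to Egfr ratio was 1.89 to 2.28 in KO and 1.13 to 1.86 in Control, 1.4-fold that of Control. In these 3 pairs the groups did not overlap, with an exact permutation p of 0.0286 each, the smallest possible, and 0.0571 after adjustment over the 6 pairs, which misses the threshold. With 3 of 6 pairs at the smallest p, the adjusted value could not be lower, so the miss says nothing of the size of the differences. The other pairs overlapped (exact permutation p from 0.229 to 0.857), and the Erbb2 to Erbb4 ratio was 0.969 of Control. A ratio shows unequal levels and not which of its genes differs. The pairs share genes and are not independent, and the Erbb3 share given above draws on the same counts. Among all single genes tested 9.44% showed no overlap, and no such share was made over other gene pairs. The number of separated pairs is therefore a description only.

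**Figure D4:**
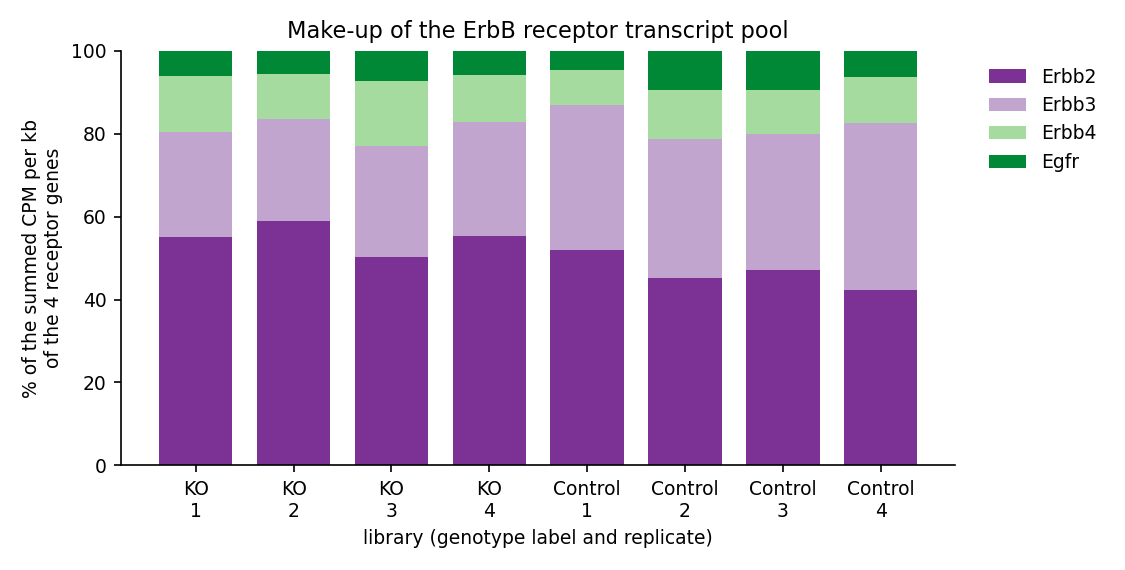
Share of each receptor gene in the summed CPM per kb of the 4 receptors, 1 bar a library, KO left of Control. Erbb3 takes 24.6% to 27.5% of each KO bar and 32.7% to 40.3% of each Control bar.

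Errfi1 (ENSMUSG00000028967, chromosome 4, 150853919 to 150868892, plus strand) encodes MIG6, which binds the kinase domain of EGFR and ErbB2, blocks it, and is itself induced by ERK signalling. It stood at 104, 80.8, 142 and 53.9 CPM across KO replicates 1 to 4, against 81.2, 384, 212 and 141 CPM in Control replicates 1 to 4. Control replicate 2 was far above the rest, and Control replicates 1 and 4 lay within the KO range. KO replicate 4 was lowest and KO replicate 3 highest of the KO libraries, as for Egf. The log2 fold change was -1.1 ± 0.44 (SE, edgeR adjusted p = 0.303), or 0.466 of Control with a 95% interval of 0.236 to 0.919, and it was -0.6 without Control replicate 2. Between the 2 libraries with an index the log2 ratio was -1.88, and among the other 3 of each it was -0.65. Within the first run of animal numbers it had the other sign, 0.36, and within the second it was -1.69. RefSeq lists starts of Errfi1 at a pair of places, and the 250 bases before each (GRCm38.p6, plus strand, chr4:150853546-150853795 and chr4:150854820-150855069) are shown for comparison with the Egf window, with the same motifs in capitals.
Errfi1, first start: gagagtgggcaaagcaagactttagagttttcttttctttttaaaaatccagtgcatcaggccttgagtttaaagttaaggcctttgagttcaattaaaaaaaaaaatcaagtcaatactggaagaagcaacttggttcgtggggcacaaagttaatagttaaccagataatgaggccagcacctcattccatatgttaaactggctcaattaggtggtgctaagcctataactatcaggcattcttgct
Errfi1, second start: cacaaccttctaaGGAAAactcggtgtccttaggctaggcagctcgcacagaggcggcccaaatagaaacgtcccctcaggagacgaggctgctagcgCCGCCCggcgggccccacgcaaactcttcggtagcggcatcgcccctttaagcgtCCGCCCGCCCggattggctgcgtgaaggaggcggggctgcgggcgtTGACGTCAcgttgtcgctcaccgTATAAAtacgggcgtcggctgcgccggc
The first window held none of the 5 motifs. The second held a cAMP response element 51 bases and a TATAAA 28 bases before the start, an NFAT core at 237 bases, and 3 GC boxes on the opposite strand, 2 of which overlap.

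Of 6 other ErbB ligands, Nrg1 was the one with enough counts to be tested, Epgn and Nrg4 were at or under 0.0907 CPM per kb in every library, and Ereg, Nrg2 and Nrg3 had no count. Nrg1 (ENSMUSG00000062991) encodes neuregulin 1, a ligand of ErbB3 and ErbB4. It stood at 38.1, 31.3, 15.9 and 51.2 CPM across KO replicates 1 to 4, against 5.17, 16.9, 7.63 and 9.22 CPM in Control replicates 1 to 4. KO replicates 1, 2 and 4 were above all Control libraries, and KO replicate 3 lay below Control replicate 2. The log2 fold change was 1.79 ± 0.4 (SE, edgeR adjusted p = 0.0552), or 3.47-fold with a 95% interval of 1.86 to 6.47. It missed the threshold by edgeR and passed it in 7 of 17 alternative settings, DESeq2 (adjusted p = 0.000366), limma-voom (0.0436) and the fits without KO replicate 3 (0.0224) or Control replicate 2 (0.0327) among them, with adjusted p-values from 0.000366 to 0.202. The log2 ratio was 2.88 within the first run of animal numbers, 1.42 within the second, 1.17 between the 2 libraries with an index and 2.16 among the others. Per kilobase Nrg1 averaged 3.3 CPM in KO and 0.94 in Control, close to Hbegf in KO.

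Of 9 tested genes of ligand shedding and trafficking 0 passed. At an unadjusted p under 0.05, 3 of 9 were higher, against 7.79% of all genes, and 1 of 9 lower, against 6.15%. Adam17, the protease that sheds most EGFR ligands, stood at 75.8, 76.4, 68.0 and 88.9 CPM in KO and 63.0, 59.4, 60.8 and 56.8 CPM in Control, with no overlap (log2 fold change 0.36 ± 0.11, SE, edgeR adjusted p = 0.153). Its exons overlap those of Iah1 on the opposite strand by 311 of 7154 bases, and Iah1 held 99% as many counts. Frmd8, which stabilises the ADAM17 complex at the cell surface, had 0.44 ± 0.14 (SE, edgeR adjusted p = 0.178).

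Of 29 adaptors and signalling enzymes downstream of the receptors, 1 rose, 0 fell and 28 did not pass, with a median log2 fold change of 0.08. Over all genes 1.34% rose, so 1 of 29 is near the background. The gene that rose was Pik3r1, the regulatory subunit of PI3 kinase, at 137, 164, 151 and 181 CPM in KO and 81.6, 108, 79.5 and 93.4 CPM in Control (log2 fold change 0.8 ± 0.14, SE, edgeR adjusted p = 0.0208). It lost its call without KO replicate 2 or 4, without Control replicate 3 or 4, and with animal run as a block (adjusted p from 0.0666 to 0.097). Of 21 negative regulators and endocytic sorting genes 0 passed, with a median of 0.12. At an unadjusted p under 0.05, 3 of 21 were higher, against 7.79% of all genes, and 1 of 21 lower, against 6.15%. Socs5, a suppressor that promotes EGFR degradation, had the smallest p, with a log2 fold change of -0.44 ± 0.11 (SE, edgeR adjusted p = 0.0886) and no overlap between the groups, and passed by DESeq2 and limma-voom. The receptor phosphatase Ptprj had 0.39 ± 0.16 (SE, edgeR adjusted p = 0.306).

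**Figure D5:**
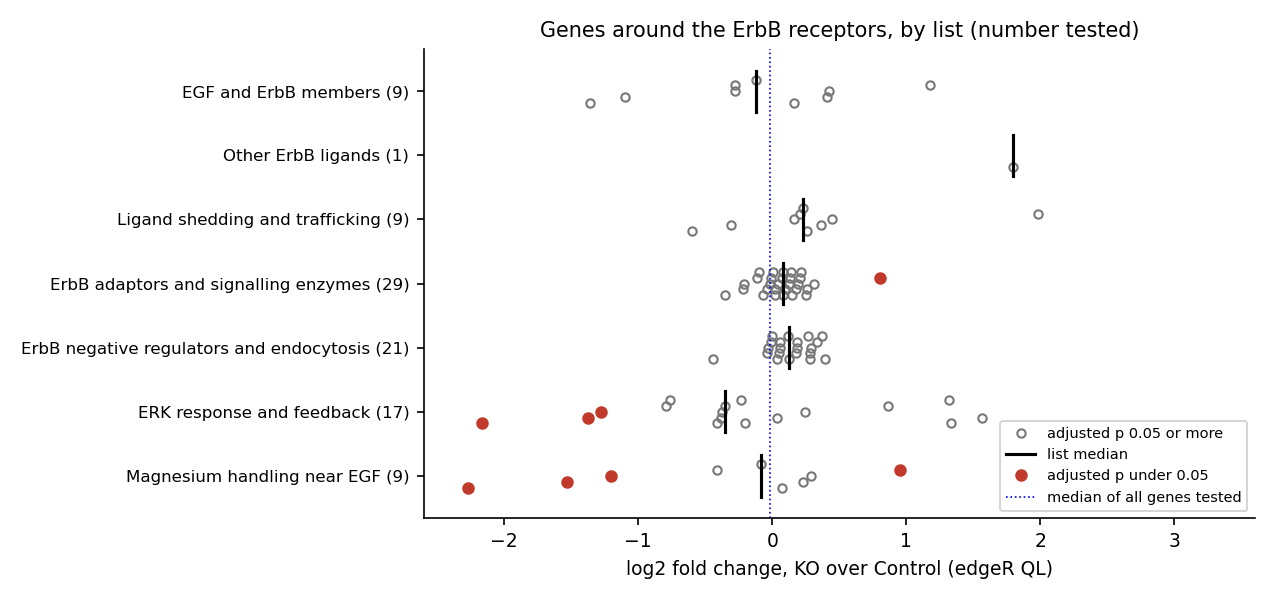
Log2 fold changes, KO over Control, of every tested gene in the 7 pathway lists, with filled points past the threshold, a bar at each list's median and a dotted line at the median of all genes tested (-0.02). Of the adaptors 1 point is filled (Pik3r1), and of the ERK response genes 3 are, all below 0.

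Of 17 tested genes that ERK signalling induces or that feed back on it, 0 rose, 3 fell and 14 did not pass, with a median of -0.36, where 0.876% of all genes fell. Without adjustment, 3 of 17 had a p under 0.05 and were higher, against 7.79% of all genes, and 5 of 17 were lower, against 6.15%. The factors Etv5 (log2 fold change -1.28 ± 0.22, SE, edgeR adjusted p = 0.0214) and Etv4 (-1.38 ± 0.26, adjusted p = 0.0304) fell, as did Ier3 (-2.17 ± 0.47, adjusted p = 0.049), an early response gene. Ier3 stood at 27.2, 48.7, 65.3 and 36.0 CPM in KO and at 183, 413, 99.4 and 99.3 CPM in Control, so that Control replicate 2 was highest, as for Errfi1. Its call was lost in 12 of 17 alternative settings, that of Etv4 in 7 and that of Etv5 in 4 (adjusted p up to 0.15, 0.119 and 0.097). All 3 lost it without KO replicate 2 or 4, without Control replicate 4 and with the animal run block. Ier3 and Etv4 also lost it without KO replicate 1 or Control replicate 1 or 3. Ier3 lost it without Control replicate 2, at a log2 fold change of -1.52. The 3 higher at an unadjusted p, named after their values were seen, were the early response factors Fos, Junb and Myc, with log2 fold changes of 1.33, 1.32 and 1.56 (edgeR adjusted p = 0.186, 0.267 and 0.299). Beside the 3 that fell, the 2 lower at an unadjusted p, named in the same way, were Spry1, a feedback inhibitor of receptor tyrosine kinase signalling, with -0.79 (adjusted p = 0.124), and Phlda1 with -0.76 (adjusted p = 0.219).

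Of 9 tested magnesium handling genes listed beside EGF, 1 rose (Trpm7, log2 fold change 0.95), 3 fell (Trpm6, Cnnm2 and Slc41a3, with -1.53, -1.21 and -2.27) and 5 did not pass, where 1.34% of all genes rose and 0.876% fell. Trpm6, the EGF-stimulated channel, stood at 104, 50.2, 91.8 and 59.0 CPM in KO and 187, 193, 227 and 278 CPM in Control (edgeR adjusted p = 0.0156), and lost its call without KO replicate 2, without Control replicate 4 and with the animal run block. Trpm7 lost its call in the same 3 settings, Slc41a3 without KO replicate 2 and with that block, and Cnnm2 in none of the 17. Within KO, replicates 1 and 3 were the higher pair for both Trpm6 and Egf, but their orders differed. Trpm6 was highest in KO replicate 1 and lowest in KO replicate 2, and Egf was highest in KO replicate 3 and lowest in KO replicate 4. In Control, Trpm6 was highest in replicate 4, where Egf, at 6323 CPM, was below replicates 2 and 3. Whether the levels of Trpm6 and Egf are linked was not tested.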

How the data were processed

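RNA from sorted distal convoluted tubule fragments was sequenced in 8 libraries, and the authors deposited raw, whole-number read counts for each Ensembl gene. The tools named in the submitters' processing notes are STAR 2.7.4a, fastp 0.20.0 and bcl2fastq 2.20, with the build GRCm38.p6. Not given in the sources used here are the counter, its annotation and its strand setting. Reads from a gene and from a partner on the other strand therefore cannot be separated. Names, positions and exon lengths come from GENCODE vM21 on GRCm38, which named 42347 of 42416 identifiers, and 1 of 165 listed symbols (Nrdc) was not matched. The deposited genotype label set the groups, and replicate numbers follow the order of deposit. The members and lists were chosen with earlier results of these data known.

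Genes were kept by filterByExpr and compared over all 8 libraries by the quasi-likelihood F test of edgeR 4.0.16 (R 4.3.3, two-sided), with TMM scaling and genotype as the single factor. P-values were adjusted by Benjamini-Hochberg over all 14268 genes tested. The standard error is the log2 fold change over the square root of F, and intervals are 95%. CPM are counts on TMM-scaled library sizes. Exact permutation tests used all 70 assignments of 8 libraries to 4 and 4, on log2(CPM + 1) for levels and log2 for ratios. The test was run on simulated counts with 200 genes changed by known folds. It recovered 10% of 1.5-fold, 64% of 2-fold, 80% of 3-fold and 94% of 4-fold changes, and 2.36% of its 127 calls were false. Most changes of 1.5-fold or less would thus be missed here.

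All members were named, and in each other pathway list those past the threshold, or the 2 with the smallest p. The 5 genes most like Egf were taken among those with a mean of at least 10 CPM, without predicted genes. Alternatives were DESeq2 1.42.0, limma-voom 3.58.1 with library weights, upper-quartile scaling, library totals, no filter, 5 CPM in 4 libraries, no mitochondrial genes, a term for an index sequence in the file name, a block for the run of the animal number, and each library left out. Ratios of Egf to marker genes and between receptors were added after the values were seen. Depth per library, 18161442 to 45150953 counts, sets the precision of the scarce ligands.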

Additional observations from a re-analysis of the deposited data

Results flagged for a closer look

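Among 46 groups of 4 libraries of the named genes, 3 held a library far from the other 3 by Dixon's test, which chance alone gives in about 1 of 20. Hbegf in Control replicate 2 was at 18.4 CPM, and its other Control values were 6.63 to 6.85 CPM. Btc in KO replicate 2 was at 6.75 CPM, below its other KO values of 7.99 to 8.22 CPM. Areg in KO replicate 2 was at 0.0771 CPM, which is 2 counts, and had none in the other KO libraries. Where the other 3 values are 0, any count is marked, so the chance rate does not apply to it.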

How the results depend on the processing

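The count of member genes past the threshold, 0 higher and 0 lower, became 1 higher with DESeq2, with the index term and without Control replicate 2 (Hbegf each time), and 1 lower with DESeq2, with limma-voom, without a filter on low counts and without KO replicate 3 (Egf each time). Over the libraries left out in turn, both counts ran from 0 to 1. The log2 fold change of Egf was -1.37 with DESeq2, -1.62 with limma-voom and -1.36 without a filter, past the threshold in each, and -1.68 to -1.13 over the libraries left out. Relative to counts of Kcnj16, Slc12a3, Slc12a1 and Umod it was -1.49, -1.01, -0.62 and -0.27. Egfr turned positive with library totals (0.0091) and without Control replicate 2, and ran from -0.33 to 0.095 over the libraries left out. Tgfa turned negative with limma-voom (-0.096), without KO replicate 4 and without Control replicate 1, and ran from -0.14 to 0.49 over the libraries left out. Erbb2, Erbb3, Erbb4, Btc and Errfi1 kept their direction and stayed short of the threshold in all 17 planned settings. Over all genes 316 passed, against 749 with DESeq2, 519 with limma-voom, 140 with the 5 CPM filter, 199 with the index term, 29 with the animal run block, and 36 to 388 with a library left out. With library totals the median of all genes was 0.13 rather than -0.02, and 72.9% rather than 60.4% of calls were higher. That share was 17.2% with the animal run block (5 higher, 24 lower), 44.3% with the 5 CPM filter, and 34.0% to 66.2% with a library left out. The cause was not tested. No paired analysis was possible because the labels give animal numbers and no replicate number shared by the groups. The counts of Areg, 7 in all, and of Tgfa limit what can be said of both.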
